A study of Homo sapiens with 8 samples.

Results

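The open chromatin of 2 oral squamous cell carcinoma lines, KOSC-2 and HSC-3, was compared without irradiation. The comparison rests on 4 of the 8 ATAC-seq libraries of the study, namely replicates 1 and 2 of KOSC-2 and replicates 1 and 2 of HSC-3, each given 0 Gy and frozen 24 hours later. KOSC-2 is labelled as the radiosensitive line and HSC-3 as the radioresistant one, and the remaining 4 libraries are from the same lines after 8 Gy. A single line stands for each label, so radiosensitivity cannot be told apart from any other difference between these lines. Whether replicates are separate cultures is not stated in the labels, and each p-value therefore reflects the spread among these libraries alone, which may be technical. Peaks of the 4 unirradiated lists on chromosomes 1 to 22 were merged wherever they shared at least 1 bp, which gave 62842 regions. A region was called line-specific where both lists of a line held it and neither list of the other line did, and common where all 4 lists held it. By this rule 5060 regions were line-specific, 3792 of them KOSC-2-specific and 1268 HSC-3-specific, and 16241 were common.

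ATAC-seq uses the Tn5 transposase to insert sequencing adapters where DNA is free of nucleosomes, so a peak marks an accessible stretch such as an active promoter, enhancer or insulator. Promoters of genes that every cell uses are known to be broad, strong and shared between cell types, while distal enhancers are narrower, are often grouped along the chromosome and differ most between cell types. Carcinoma lines also carry gains and losses of chromosomes and of shorter segments, and the number of DNA copies of a segment sets how many reads can come from it. Regions are given by position on build hg19. No gene positions of that build were used here, so regions were not assigned to genes, and the squamous identity of the lines was not checked against marker genes.

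The 4 lists differed in length and depth. The KOSC-2 lists held 37463 peaks in replicate 1 and 44364 in replicate 2. The HSC-3 lists held 40842 peaks in replicate 1 and 22860 in replicate 2, so that 1 list was far shorter than the other 3. The lowest background under the peaks, in reads per 10 kb, served as the measure of depth. It was 64.8 and 31.4 in the KOSC-2 libraries and 27.0 and 20.2 in the HSC-3 libraries, in the order of the replicates. The smallest pileup of reads at any summit was 9 and 6 in KOSC-2 and 6 and 5 in HSC-3, which sets the limit under which open regions could not be called. KOSC-2 replicate 1 thus had the highest background and HSC-3 replicate 2 the lowest background and the shortest list. The lists of KOSC-2 averaged 40914 ± 4880 peaks and those of HSC-3 31851 ± 12715 (SD, n = 2 each), a difference smaller than the spread (exact two-sided permutation test of 2 against 2 libraries, p = 0.667). That test has 6 assignments and cannot give less than 0.333, so no comparison of 2 against 2 libraries below can pass 0.05.

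Peaks were wider in KOSC-2 than in HSC-3, without overlap between the libraries. The median peak measured 472 bp in KOSC-2 replicate 1 and 458 bp in replicate 2, against 445 and 409 bp in the HSC-3 replicates. The means were 465 ± 9.90 bp and 427 ± 25.5 bp (SD, n = 2 each, exact permutation p = 0.333, the smallest possible). Within the common regions the median peak was 638 and 659 bp wide in KOSC-2 and 616 and 448 bp in HSC-3, so the order held in regions that both lines share, and the short HSC-3 list was the one that stood apart. The length covered by peaks was 21.0 and 24.4 Mb in KOSC-2 and 21.6 and 10.6 Mb in HSC-3, and these values overlapped (exact permutation p = 0.667). The median gap between neighbouring peaks was 28.6 and 24.2 kb in KOSC-2 and 26.1 and 47.4 kb in HSC-3 (exact permutation p = 0.667). Without HSC-3 replicate 2 the difference in this gap turned from -10.4 to 0.236 kb.

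Most regions that both libraries of a line held had a peak of the other line too. Among the 28214 regions called in both KOSC-2 lists, 86.6% had a call in at least 1 HSC-3 list, and of the 19688 called in both HSC-3 lists, 93.6% had a call in at least 1 KOSC-2 list. Of all merged regions, 6.03% were KOSC-2-specific and 2.02% HSC-3-specific, shares that the rule itself sets. The largest classes beside the common regions were single-library regions, with 10311 called in KOSC-2 replicate 2 alone and 7294 in HSC-3 replicate 1 alone, and the 7671 regions called in every list except the short HSC-3 one. The long list of HSC-3 overlapped with each KOSC-2 list nearly as much as the KOSC-2 replicates did with each other. The number of shared bases over bases in either list (the Jaccard index) was 0.519 for the KOSC-2 pair, 0.501 for KOSC-2 replicate 1 with HSC-3 replicate 1, and 0.497 for KOSC-2 replicate 2 with HSC-3 replicate 1. KOSC-2 replicates 1 and 2 had 0.370 and 0.323 with HSC-3 replicate 2. The HSC-3 pair had 0.394, although 87.9% of the peaks of its short list lay in the long one. With lists of equal length the values in the same order were 0.578, 0.536, 0.514, 0.428, 0.382 and 0.461. Each pair across lines was thus below the KOSC-2 pair. Against the HSC-3 pair, the pairs across lines with HSC-3 replicate 2 were lower and those with HSC-3 replicate 1 higher, as with full lists. Libraries of the same line were therefore not always the more alike.

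**Figure D1:**
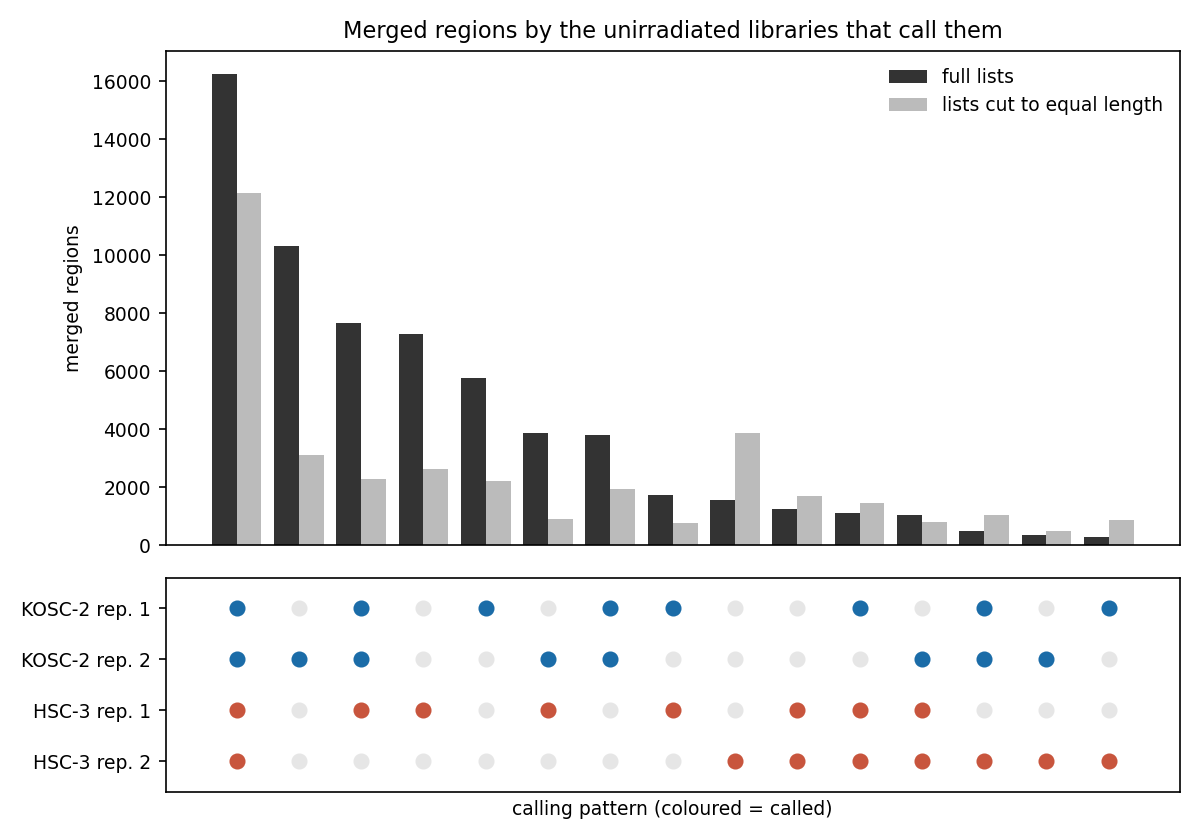
Number of merged regions (vertical axis) for each combination of the 4 unirradiated libraries that call them, with full lists (dark bars) and with every list cut to its strongest 22860 peaks (light bars). Coloured dots under a bar mark the libraries that call the region. The bar of all 4 libraries is the highest (16241 regions), and regions called in every list but HSC-3 replicate 2 fall from 7671 to 2288 when lists are cut.

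The excess of KOSC-2-specific regions depended on the lists counted. With full lists there were 2.99 KOSC-2-specific regions for each HSC-3-specific one. With all 4 lists cut to the 22860 peaks of highest −log10 p, the counts were 1945 and 1706 (5.36% and 4.70% of 36278 merged regions), a ratio of 1.14. Regions called in at least 1 list of a line and in none of the other numbered 19879 and 10133, a ratio of 1.96. Without HSC-3 replicate 2, the rule asks for 1 HSC-3 list but still for both KOSC-2 lists, which makes the HSC-3 class easier to enter, and 4304 KOSC-2-specific and 8571 HSC-3-specific regions were counted, a ratio of 0.502. The HSC-3-specific count also rose to 2400, 2337 and 2864 without KOSC-2 replicate 1, KOSC-2 replicate 2 and HSC-3 replicate 1, and the KOSC-2-specific count to 14239, 9666 and 11506 in the same order. Each of these omissions makes the rule easier to meet, so the counts rise by construction. Cutting the lists also exchanged members. Of the KOSC-2-specific regions, 787 (20.8%) were also KOSC-2-specific with lists of equal length, where they made up 40.5% of that class. Of the HSC-3-specific regions, 568 (44.8%) were also HSC-3-specific with equal lists, 33.3% of that class. The other members of the equal-length classes, 1158 in KOSC-2 and 1138 in HSC-3, all had a weaker peak of the other line in the full lists.

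Line-specific regions were narrow and of less than middling strength. The merged region was 486 bp wide in the median for KOSC-2-specific regions (quartiles 409 and 618 bp) and 431 bp for HSC-3-specific ones (380 and 534 bp), against 788 bp for common regions (598 and 1030 bp). A common region joins peaks of 4 lists and a line-specific one of 2, so merging itself widens common regions more. Single peaks kept the order. Their median width was 385 and 421.5 bp in KOSC-2-specific regions, against 638 and 659 bp in common regions of the same lists. In HSC-3-specific regions it was 390 and 343 bp, against 616 and 448 bp. Strength was taken as the percentile of the authors' −log10 p within the peak's own list. KOSC-2-specific peaks had a median percentile of 32.1 in replicate 1 and 40.6 in replicate 2, and HSC-3-specific peaks 40.3 and 31.5. Common regions stood at 75.6 and 78.1 in KOSC-2 and at 77.3 and 60.0 in HSC-3. The order was the same in all 4 libraries, with the classes set by the same lists, so it is given as a description. With lists of equal length, which hold no weak peaks of the longer lists, the merged regions measured 588, 485 and 849 bp in the median (KOSC-2-specific, HSC-3-specific and common). Few line-specific peaks were among the strongest 10% of their list, 10 and 44 of the KOSC-2-specific peaks and 9 and 7 of the HSC-3-specific ones, in the order of the replicates. A mean percentile over 75 was reached by 113 KOSC-2-specific regions (2.98%) and 44 HSC-3-specific regions (3.47%). These strong members were wider, with medians of 659 and 522 bp (KOSC-2-specific and HSC-3-specific).

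Both classes lay farther from common regions in the median than common regions lay from each other. From a KOSC-2-specific region the median distance to a common one was 40.1 kb, with quartiles of 14 and 119 kb. From an HSC-3-specific region it was 50.3 kb, with quartiles of 18.4 and 123 kb, and from a common region to the next 31.5 kb, with quartiles of 13.5 and 69.7 kb. More than 100 kb separated 28.7% of KOSC-2-specific and 30.2% of HSC-3-specific regions from any common region, where 16.2% of common regions had no other within that distance. Within 1 kb of a common region, however, stood 3.80% of KOSC-2-specific and 1.26% of HSC-3-specific regions, against 2.37% of common regions. Distances to any peak of the other line are shorter, since every common region holds such peaks. The nearest unirradiated HSC-3 peak lay 13.8 kb from a KOSC-2-specific region in the median, and within 1 kb for 360 of them (9.49%). The nearest unirradiated KOSC-2 peak lay 15.7 kb from an HSC-3-specific region, and within 1 kb for 78 of them (6.15%).

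The irradiated libraries, which played no part in choosing the regions, were used to ask whether the same regions differed between the lines again. KOSC-2-specific regions of 0 Gy were called in 86.6% and 75.1% of cases in the KOSC-2 8 Gy libraries and in 6.78% and 31.6% in the HSC-3 8 Gy libraries, replicates 1 and 2 in that order. Of all merged 0 Gy regions these lists called 67.1%, 57.9%, 31.1% and 57.0%. Both KOSC-2 lists thus called KOSC-2-specific regions above their own level for all regions and both HSC-3 lists below it. The means were 80.8% ± 8.11 in KOSC-2 and 19.2% ± 17.6 in HSC-3 (SD, n = 2 each), a difference of 61.6 percentage points without overlap (exact permutation p = 0.333, the smallest possible). HSC-3-specific regions were called in 33.4% and 78.7% of cases in the HSC-3 8 Gy libraries and in 34.9% and 19.8% in the KOSC-2 8 Gy libraries. Here the lines overlapped (56.1% ± 32.0 against 27.3% ± 10.7, SD, n = 2 each, exact permutation p = 0.667). The HSC-3 8 Gy replicate 1 list is the shortest of the study with 21955 peaks and the KOSC-2 8 Gy replicate 1 list the longest with 50448. Regions defined without KOSC-2 0 Gy replicate 2 gave smaller differences between own and other line, 28.5 percentage points for KOSC-2-specific and 7.38 for HSC-3-specific regions. The HSC-3-specific difference was also smaller without HSC-3 0 Gy replicate 1 (14.5) or replicate 2 (8.06), and slightly so without KOSC-2 0 Gy replicate 1 (27.6). For KOSC-2-specific regions the difference was 46.3 without KOSC-2 0 Gy replicate 1. Without HSC-3 0 Gy replicate 1 or replicate 2 it was 42.9 or 59.2, so each omission lowered it.

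With the 8 Gy lists cut to the same 21955 peaks, each class was called more often in its own line than in the other. KOSC-2-specific regions were then called in 33.8% and 34.5% of cases in KOSC-2 and in 6.78% and 6.43% in HSC-3. The 95% Wilson intervals were 32.3% to 35.3% and 33.0% to 36.1% in KOSC-2 and 6.02% to 7.62% and 5.70% to 7.26% in HSC-3, and cover counting error only. HSC-3-specific regions were called in 33.4% and 43.3% of cases in HSC-3 and in 2.44% and 2.13% in KOSC-2. All merged regions were called in 35.2% and 34.6% of cases in KOSC-2 and 31.1% and 34.2% in HSC-3. In the KOSC-2 lists, KOSC-2-specific regions were thus no longer called above the level of all regions. In the HSC-3 lists, HSC-3-specific regions were above it, and each class was below it in the other line. With the 0 Gy lists cut to 22860 peaks as well, the equal-length KOSC-2-specific regions were called in 73.4% and 73.2% of cases in KOSC-2 and in 22.6% and 24.1% in HSC-3. The equal-length HSC-3-specific regions were then called in 51.2% and 64.9% of cases in HSC-3 and in 15.1% and 13.2% in KOSC-2. All regions of these lists were called in 57.1%, 55.8%, 49.9% and 55.9% of cases (KOSC-2 replicates 1 and 2, HSC-3 replicates 1 and 2). The differences between own and other line were 49.9 and 43.9 percentage points (exact permutation p = 0.333 each, n = 2 each). With the 8 Gy lists alone cut, the difference between own and other line was 27.6 percentage points for KOSC-2-specific and 36.1 for HSC-3-specific regions (exact permutation p = 0.333 each, the smallest possible, n = 2 each). With the 0 Gy lists alone cut it was 54.5 for KOSC-2-specific and 16 for HSC-3-specific regions. With full lists, 1680 KOSC-2-specific regions (44.3%) were called in both KOSC-2 and neither HSC-3 8 Gy list, and 235 HSC-3-specific regions (18.5%) in both HSC-3 and neither KOSC-2 8 Gy list. Strong members were found again more often. Of the 113 KOSC-2-specific regions with a mean percentile over 75, the KOSC-2 8 Gy lists called 100% and 99.1% and the HSC-3 8 Gy lists 6.19% and 24.8%. Of the 44 such HSC-3-specific regions, the HSC-3 8 Gy lists called 90.9% and 100% and the KOSC-2 8 Gy lists 36.4% and 15.9%.

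**Figure D2:**
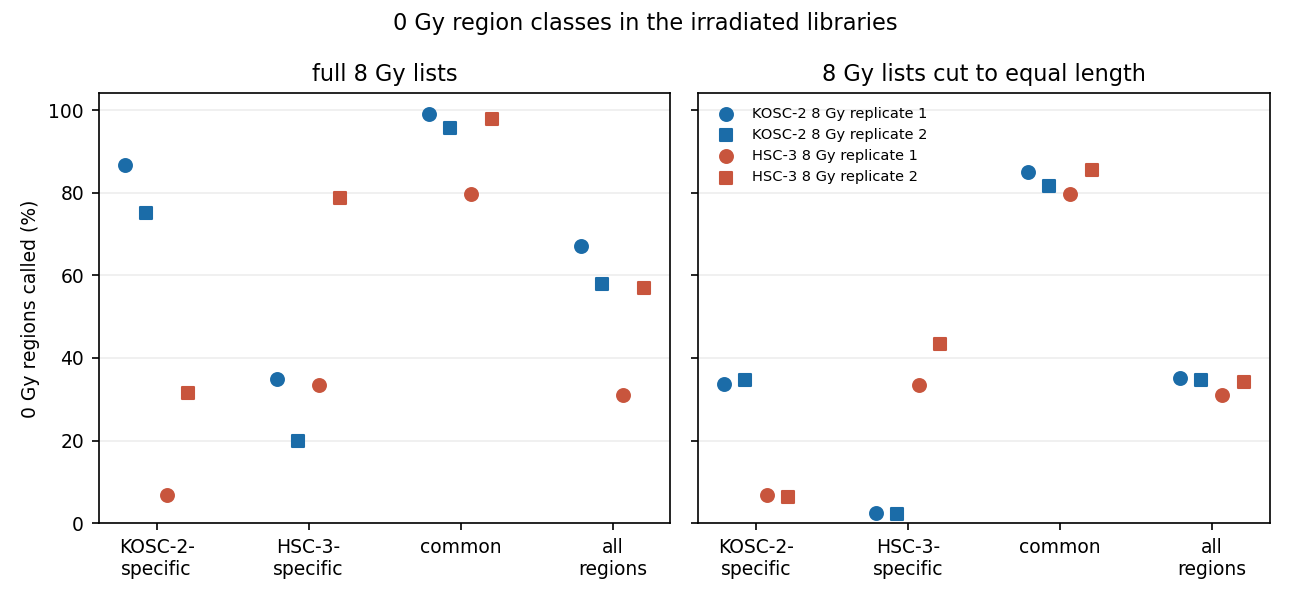
Percentage of unirradiated regions of each class (horizontal axis) that each irradiated library calls, with full 8 Gy lists on the left and with the 8 Gy lists cut to 21955 peaks on the right. Each point is 1 library. On the right the KOSC-2 points lie above the HSC-3 points for KOSC-2-specific regions (33.8% and 34.5% against 6.78% and 6.43%) and below them for HSC-3-specific regions.

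The 5 strongest KOSC-2-specific regions were found on 5 chromosomes. The strongest, on chromosome 2 from 78768363 to 78769378, reached percentiles of 95.1 and 98.8 in the KOSC-2 replicates, with an authors' fold enrichment over background of 14.9 and 15.8. The nearest unirradiated HSC-3 peak was 1947 kb away. The region on chromosome 5 from 16777873 to 16778811 stood at percentiles 98.9 and 94.8, with HSC-3 peaks 40.9 kb away. Chromosome 11, 100646813 to 100647607, stood at 90.1 and 98.3, and lies inside a longer stretch without HSC-3 peaks described below. Its fold enrichment of 8.78 and 9.50 was the lowest of the 5, at summit pileups of 66 and 127 reads. In KOSC-2 replicate 2 the pileup was the largest of the 5 at the lowest fold, so the local background there was the highest of the 5. The part of read number in this region was not tested. Chromosome 12, 33948332 to 33949109, stood at 91.4 and 95.8, and chromosome 13, 63216987 to 63217596, at 90.3 and 96.8. All 5 were called in both irradiated KOSC-2 libraries, at percentiles of 90.0 to 98.6, and in neither irradiated HSC-3 library.

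Among the HSC-3-specific regions the strongest lay on chromosome 14 from 78669189 to 78669976, at percentiles 99 and 99.4 in the HSC-3 replicates and a fold enrichment of 12.8 and 12.4. A KOSC-2 peak lay 38.3 kb away. Chromosome 18, 7038225 to 7038964, followed at 96.3 and 97.5, with the nearest KOSC-2 peak at 355 kb. Chromosome 13, 112686414 to 112687260, stood at 96.8 and 88.1. Chromosome 2, 7965423 to 7966327, stood at 88.6 and 96.2, and chromosome 10, 131791813 to 131792359, at 95.3 and 88.9. All 5 were called in both irradiated HSC-3 libraries, at percentiles of 86.8 to 99.6. The region on chromosome 2 was also called in KOSC-2 8 Gy replicate 1, as a weak peak at percentile 5.97, and the other 4 in neither irradiated KOSC-2 library.

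The lines also divided their peaks differently over the chromosomes. The largest difference toward HSC-3 was on chromosome 5, which held 6.79% and 7.22% of the HSC-3 peaks and 6.09% and 5.37% of the KOSC-2 peaks (7.0% ± 0.308 against 5.73% ± 0.508, SD, n = 2 each, exact permutation p = 0.333). The largest toward KOSC-2 was on chromosome 16, with 3.6% and 3.73% of KOSC-2 peaks and 3.17% and 2.78% of HSC-3 peaks (3.66% ± 0.0866 against 2.98% ± 0.276, SD, n = 2 each, exact permutation p = 0.333). In all, the shares of the lines did not overlap on 13 of 22 chromosomes (59.1%), with KOSC-2 higher on 8 and HSC-3 higher on 5. None can pass an adjusted threshold, since 0.333 is the smallest p of each. The irradiated libraries showed the same order without overlap on 12 of these 13, and overlapped on chromosome 20. They were without overlap on 18 of 22 chromosomes (81.8%).

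Line-specific regions mostly followed the same division with lists of equal length, but not with full lists. With full lists KOSC-2-specific regions outnumbered HSC-3-specific ones on all 22 chromosomes, from 147 against 116 on chromosome 5 to 205 against 11 on chromosome 19. Chromosome 19 is known as gene-dense and for its clusters of zinc finger genes. With lists of equal length KOSC-2-specific regions were more numerous on 16 chromosomes and HSC-3-specific ones on 5, namely 2, 4, 5, 8 and 10, with 60 each on chromosome 13. Chromosome 2 is among these 5 although its shares of peaks overlapped between the lines. Chromosome 14, with the higher share of peaks in HSC-3, had 61 KOSC-2-specific against 59 HSC-3-specific regions. Chromosome 10 had 43 KOSC-2-specific against 126 HSC-3-specific regions, chromosome 5 had 67 against 184, and chromosome 4 had 66 against 136. In the other direction chromosome 16 had 93 against 24, chromosome 19 had 105 against 30, chromosome 18 had 66 against 24 and chromosome 21 had 26 against 11.

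The number of reads at common regions moved with this ratio. For each library the median summit pileup of the common regions on a chromosome was divided by that of all its common regions. On chromosome 5 this relative pileup was 0.956 and 0.778 in KOSC-2 and 1.11 and 1.10 in HSC-3. On chromosome 16 it was 1.07 and 1.13 in KOSC-2 and 0.892 and 0.850 in HSC-3. Over the 22 chromosomes the log2 ratio of the classes with equal lists and the log2 ratio of relative pileup (KOSC-2 over HSC-3) had a Pearson r of 0.868 and a Spearman rho of 0.810, given without a test, since both come from the same 4 lists. With full lists the values were 0.658 and 0.675. The background under common regions, relative to its mean in the library, moved along with it (Pearson r = 0.792 with the equal-length ratio). Chromosome 19 stood apart, with a relative pileup of 1.04 and 1.02 in KOSC-2 and 1.08 and 0.950 in HSC-3, a ratio of 1.02, beside a class ratio of 3.5 with equal lists. The part of copy number or read number in the division over chromosomes was not tested.

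**Figure D3:**
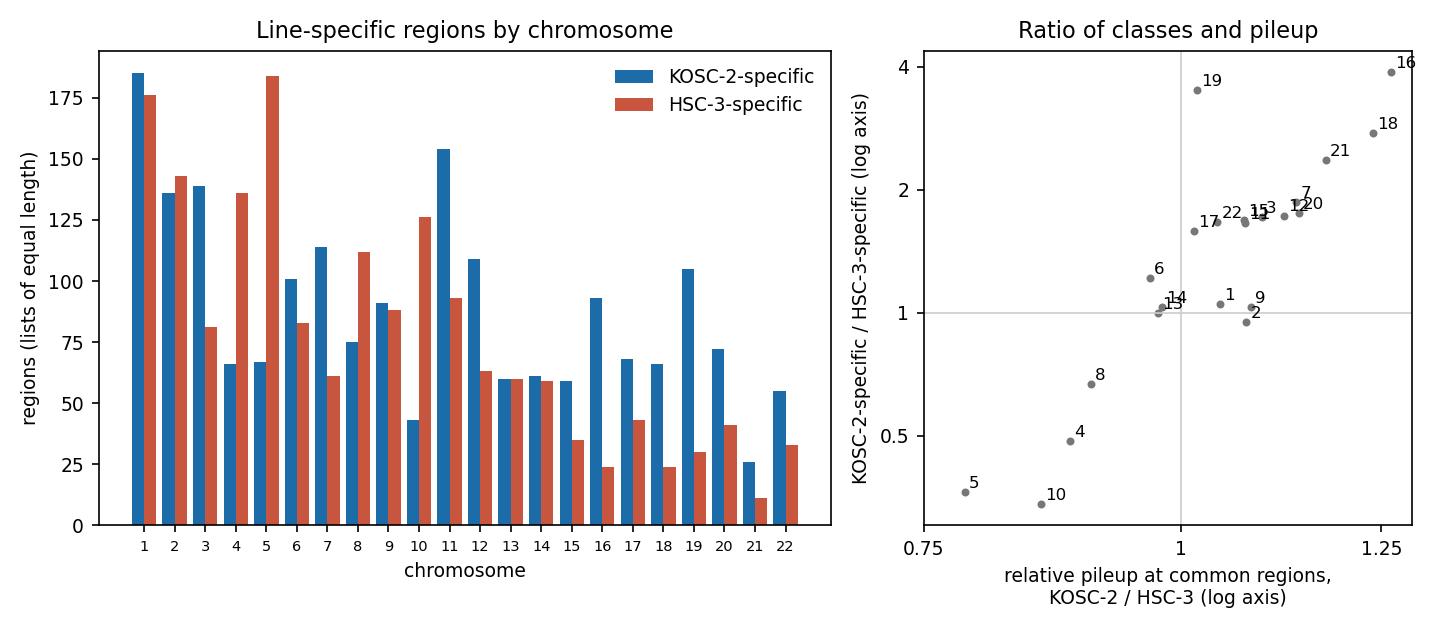
Left, number of line-specific regions per chromosome with lists of equal length, KOSC-2 in blue and HSC-3 in red. Right, the ratio of the classes per chromosome (vertical log axis) against the ratio of relative summit pileup at common regions (horizontal log axis), each number a chromosome. Chromosomes 5 and 10 lie at the lower left and 16 and 18 at the upper right. Chromosome 19 has a class ratio of 3.5, second to 3.88 on chromosome 16, at a pileup ratio of 1.02.

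KOSC-2-specific regions stood close to each other more often than HSC-3-specific ones in the full lists. Another region of the same class lay within 50 kb of 26.7% of the KOSC-2-specific and 13.2% of the HSC-3-specific regions. The first class has 2.99 times the members, and with lists of equal length the values were 20.4% and 16.2%. Without HSC-3 replicate 2, where the HSC-3-specific class is the larger one (8571 against 4304), they were 29.3% and 41.8%. Runs were counted as unbroken series of a class among the regions called in both lists of at least 1 line. KOSC-2-specific runs of 3 or more numbered 131 and held 14.5% of the class, and HSC-3-specific ones numbered 20 and held 5.28%. With equal lists these numbers were 66 with 12.1% and 41 with 7.97%. Most regions stood alone in either class, 66.7% and 83.2% with full lists and 69.5% and 71.7% with equal lists.

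The 3 longest KOSC-2-specific runs held 18, 15 and 13 regions. Runs are counted by order and not by distance, so a long run need not be dense. The first spanned 6.80 Mb of chromosome 13, from 65838151 to 72637113, a chromosome known to be poor in genes. Its span held 34 merged regions of any class. It held 23 and 26 peaks in the unirradiated KOSC-2 libraries and 3 and 0 in the HSC-3 libraries. After 8 Gy it held 38 and 21 peaks in KOSC-2 and 0 and 2 in HSC-3. The second, also on chromosome 13, from 81043985 to 87499192, held 35 and 31 peaks in KOSC-2 and 1 and 2 in HSC-3 at 0 Gy. The third spanned 682 kb of chromosome 11, from 100238607 to 100920295, with 18 and 25 peaks in KOSC-2 and 0 in both HSC-3 libraries. The irradiated libraries held 32 and 24 peaks there in KOSC-2 and again 0 in both HSC-3 lists. Among lists cut to equal length, the longest KOSC-2-specific run was this one on chromosome 11, with 7 regions, tied with 7 on chromosome 13 from 34914609 to 36497928. The chromosome 13 runs named first then held at most 4 and 5. Without KOSC-2 replicate 1 the 3 runs held 30, 32 and 28 regions, and without KOSC-2 replicate 2 they held 25, 35 and 21, while without HSC-3 replicate 2 the first held 11.

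With full lists the longest HSC-3-specific runs were shorter and covered less sequence, in a class of 1268 regions against 3792. With lists of equal length the longest runs held 7 (KOSC-2-specific) and 6 (HSC-3-specific) regions. Without HSC-3 replicate 2, which makes the HSC-3 class the larger one, they held 14 and 19. The longest held 5 regions in 194 kb of chromosome 19, from 31745107 to 31939606, with 9 and 5 peaks in the unirradiated HSC-3 libraries and 0 in both KOSC-2 libraries. After 8 Gy it held 4 and 8 peaks in HSC-3 and 3 and 2 in KOSC-2. A run of 4 lay on chromosome 18, from 6682829 to 7038964, with 11 and 4 peaks in HSC-3 and 0 in KOSC-2, and after 8 Gy 9 and 10 in HSC-3 and again 0 in both KOSC-2 libraries. Another run of 4 lay on chromosome 9, from 119835851 to 120250197, with 6 and 5 peaks in HSC-3 and 0 in KOSC-2. There the irradiated HSC-3 libraries held 0 and 6 peaks and the irradiated KOSC-2 libraries 2 and 1. With lists of equal length the longest HSC-3-specific run held 6 regions, on chromosome 2 from 2617107 to 2767728, with 9 and 6 peaks in HSC-3 and 1 and 0 in KOSC-2 in the full lists. The 3 runs named first then held at most 3, 2 and 2. Without HSC-3 replicate 2 they held 12, 19 and 8, and the second held 7 without HSC-3 replicate 1.

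Runs leave out the regions called in a single library, so stretches were also counted in which every merged region, however often called, came from the same line. With full lists a stretch thus holds 0 unirradiated peaks of the other line by definition. Only the irradiated libraries can show whether peaks of the other line are absent there again. The longest such stretch of KOSC-2 held 48 regions over 5.41 Mb of chromosome 13, from 82299908 to 87705347. It held 30 and 32 unirradiated and 32 and 27 irradiated KOSC-2 peaks, and 1 peak in each irradiated HSC-3 library. The next held 40 regions on chromosome 11, from 89989624 to 92361276, with 15 and 35 unirradiated and 49 and 41 irradiated KOSC-2 peaks against 0 and 1 irradiated HSC-3 peaks. The third widened the chromosome 11 run above to 35 regions over 1.07 Mb, from 100225391 to 101294548, with 0 peaks in all 4 HSC-3 libraries. A stretch of 29 regions on chromosome 4, from 27102337 to 29902313, likewise held 14 and 26 unirradiated and 27 and 20 irradiated KOSC-2 peaks and 0 in all 4 HSC-3 libraries. Each of the 4 KOSC-2 libraries thus held peaks in these stretches, with replicate 1 at 0 Gy lowest in the second, the third and the last. Most single regions were not called in both unirradiated KOSC-2 lists. Those that were numbered 14 of 48, 10 of 40, 13 of 35 and 11 of 29, in the order of the stretches. Since no HSC-3 peak lies in the third and the last stretch, the background of HSC-3 there could not be read from the lists.

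In HSC-3 the longest stretch held 20 regions over 666 kb of chromosome 18, from 6652101 to 7318103. The HSC-3 libraries had 18 and 6 peaks there at 0 Gy and 13 and 14 after 8 Gy, and the irradiated KOSC-2 libraries 1 and 0. A stretch of 13 regions on chromosome 10, from 87480765 to 87921257, held 13 and 3 unirradiated and 5 and 13 irradiated HSC-3 peaks and 0 in all 4 KOSC-2 libraries. The other stretch of 13, on chromosome 19 from 31745107 to 32475094, held 12 and 6 unirradiated HSC-3 peaks, and 4 and 2 irradiated KOSC-2 peaks. Stretches of 10 or more regions numbered 60 in KOSC-2 and 3 in HSC-3 with full lists, and 9 and 7 with lists of equal length. The longest then held 17 regions in KOSC-2, on chromosome 19 from 19932117 to 22701168, and 12 in HSC-3, on chromosome 18 from 6683142 to 7529434. Without KOSC-2 replicate 2 the 3 longest KOSC-2 stretches held at most 30, 15 and 21 regions, and with equal lists 16, 13 and 14. Without HSC-3 replicate 1 the HSC-3 stretches on chromosomes 18, 19 and 10 held at most 6, 6 and 3 regions, and with equal lists 12, 10 and 5. Stretches were chosen as a measure after the peaks of these loci had been seen.

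**Figure D4:**
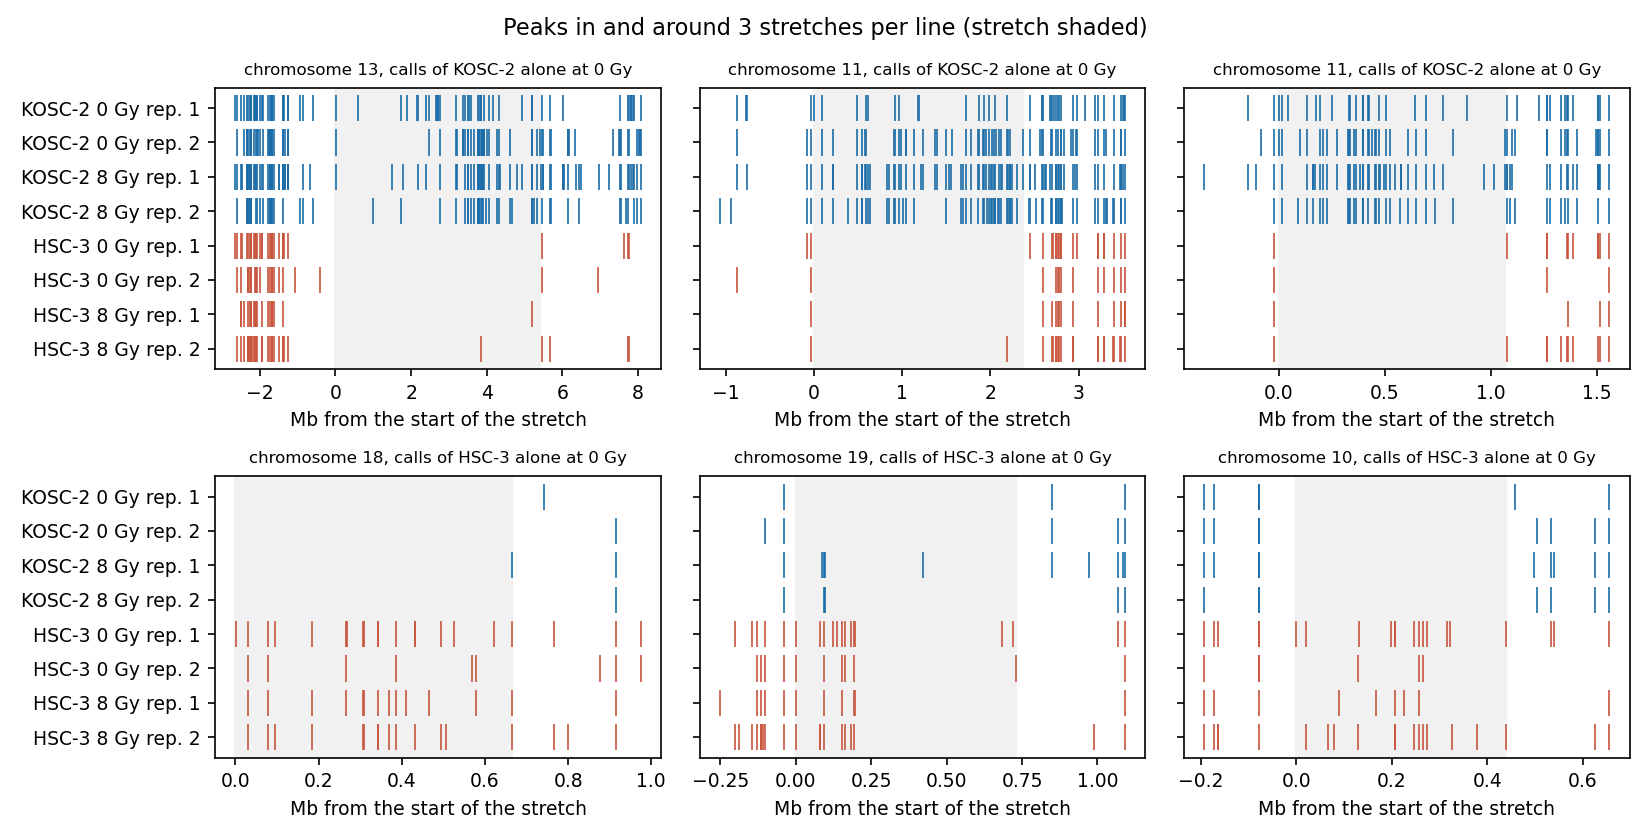
Peaks of all 8 libraries (rows, each tick the centre of a peak, KOSC-2 in blue, HSC-3 in red) in and around the 3 longest stretches of each line, against distance in Mb from the start of the stretch, which is shaded. The shaded part of the right upper panel (chromosome 11) holds 0 HSC-3 peaks in 4 libraries, and that of the right lower panel (chromosome 10) 0 KOSC-2 peaks in 4 libraries. The absence at 0 Gy follows from the definition of a stretch, which did not use the 8 Gy libraries.

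Windows of 1 Mb showed groups of line-specific regions that also hold common ones. The window with most KOSC-2-specific regions lay on chromosome 19 from 2 to 3 Mb, with 15 of them beside 13 common and 0 HSC-3-specific regions. Its peaks numbered 48 and 51 in unirradiated and 56 and 44 in irradiated KOSC-2 libraries, against 28 and 13 and then 15 and 25 in HSC-3. The 0 Gy order follows from the choice of the window, and the irradiated KOSC-2 libraries, which the choice did not use, were also above the irradiated HSC-3 ones. The window with most HSC-3-specific regions lay on chromosome 1 from 48 to 49 Mb, with 7 of them. It held 22 and 13 unirradiated and 9 and 27 irradiated HSC-3 peaks against 8 and 5 and then 8 and 6 in KOSC-2. The irradiated libraries did not overlap there, by a margin of 9 against 8 peaks. The window on chromosome 19 held 26, 25 and 25 KOSC-2-specific regions without KOSC-2 replicate 1, KOSC-2 replicate 2 and HSC-3 replicate 1, and that on chromosome 1 held 15 HSC-3-specific regions without HSC-3 replicate 2.

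With lists of equal length other windows led, and the chromosome 19 window held 8 KOSC-2-specific regions in place of 15. The KOSC-2-specific regions were most numerous on chromosome 6 from 43 to 44 Mb, with 15, where the full lists held 36 and 47 unirradiated and 44 and 50 irradiated KOSC-2 peaks. HSC-3 had 31 and 5 and then 6 and 23 there, with both short lists far below the long ones. The full lists gave 8 KOSC-2-specific regions in this window, and 23 without KOSC-2 replicate 1 or 26 without HSC-3 replicate 1. HSC-3-specific regions were most numerous on chromosome 4 from 74 to 75 Mb, with 10 beside 6 common regions. The HSC-3 libraries had 35 and 27 peaks there at 0 Gy and 25 and 31 after 8 Gy, and the KOSC-2 libraries 21 and 19 and then 21 and 16. The short irradiated HSC-3 list, which the choice did not use, thus held more peaks in this window than any KOSC-2 list, although it has the fewest peaks overall. The full lists gave 5 HSC-3-specific regions here, and 8, 9 and 14 without KOSC-2 replicate 2, HSC-3 replicate 1 and HSC-3 replicate 2. In the neighbouring window, from 75 to 76 Mb, HSC-3 had 40 and 26 unirradiated and 26 and 40 irradiated peaks and KOSC-2 17 and 18 and then 21 and 21. Chromosome 4 is known to carry many of the CXC chemokine genes and several genes for ligands of the EGF receptor. Whether these windows hold them was not tested, because gene positions of hg19 were not used.

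**Figure D5:**
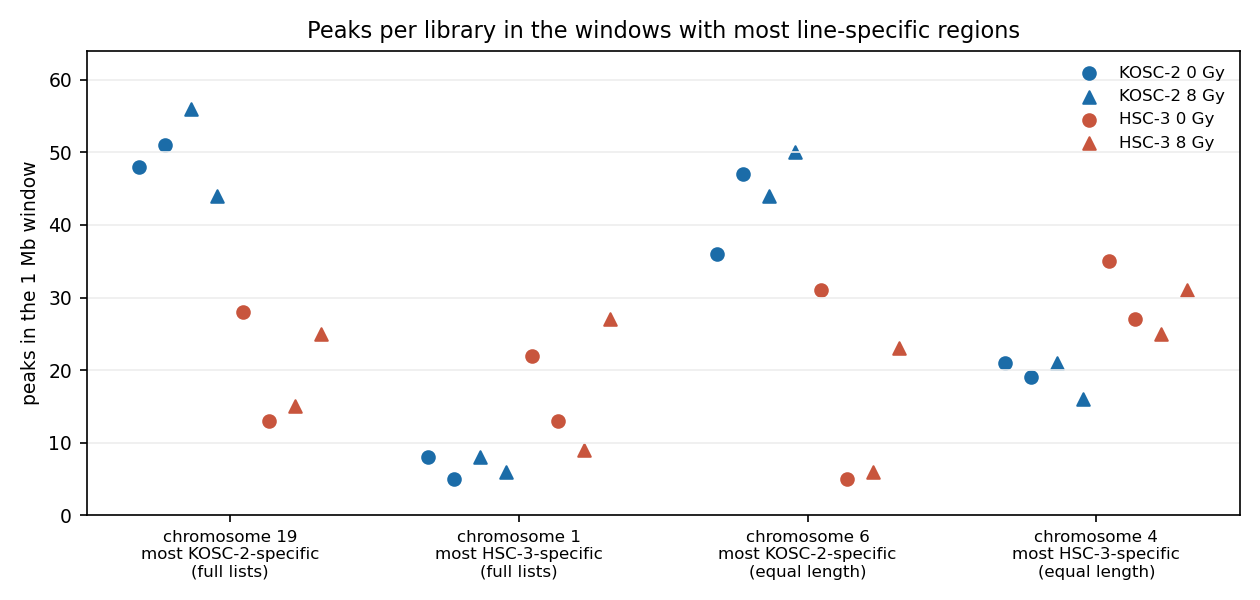
Peaks per library (vertical axis) in the 1 Mb windows with most line-specific regions of each class, with full lists (left pair) and with lists of equal length (right pair); circles are 0 Gy and triangles 8 Gy libraries, KOSC-2 in blue and HSC-3 in red. In the chromosome 4 window all 4 HSC-3 libraries (25 to 35 peaks) lie above all 4 KOSC-2 libraries (16 to 21). The order of the 0 Gy libraries follows from the choice of the windows, which did not use the 8 Gy libraries.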

How the data were processed

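Peak lists of 8 ATAC-seq libraries in narrowPeak layout were used, the 4 unirradiated ones to define regions and the 4 irradiated ones as libraries outside the rule. Per the submitters' processing notes, MACS2 2.2.6, Bowtie2 2.3.4.2, SAMtools 1.9, FastQC 0.11.7 and deepTools were used with build hg19, without roles or parameters. The Tn5 shift and the handling of duplicates were not given in the sources used here. Per peak the authors deposited an integer score, a ratio (fold enrichment over the library's local background), the −log10 p-value, the −log10 q-value and the summit offset. These values are relative to their own library and were used only to rank or filter peaks within a list. Pileup and background at each summit were solved from fold and p (100% of pileups whole, within 0.0001 of the deposited −log10 p), and the lowest background of a list was scaled to 10 kb as its depth, taking fragments of 300 bp, the width of the narrowest peak.

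Peaks outside chromosomes 1 to 22 were left out. A region counted as called by a library with at least 1 peak inside it. Tests between libraries were exact permutation tests, two-sided. Replicate numbers are shared between the lines only as numbers. Named were, per class, the 5 strongest regions (mean percentile over the line's lists), the 3 longest runs, the 1 Mb window with most regions and the chromosome of largest difference. Stretches, other chromosomes and the neighbouring chromosome 4 window were chosen after their values were seen. The members and lists were chosen with earlier results of these data known. Comparisons planned with genes and markers were not run, because the gene table used here is of GRCh38.p14. Alternatives were each library left out, a replicate block, equal-length lists, a stricter −log10 q (5 or more), 50% of a region covered, chromosome X added, and other calling, merging (500 bp) and neighbour rules. The computations ran in Python 3.11.15 (scipy 1.17.1, pandas 2.3.3, numpy 2.4.6; figures with matplotlib 3.10.9) after a test on simulated data with planted classes, runs and pileups.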

Additional observations from a re-analysis of the deposited data

How the results depend on the processing

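Of 370 recounts, 275 stayed on the same side of their bound (1.5 times for counts, 1 SD or a 95% binomial interval for other values), 94 moved and 1 changed sign. This tally does not measure stability. A named region keeps its class by construction when a library is left out, and the replicate block repeats the same differences. Large falls also counted as staying. Without HSC-3 replicate 2 the difference of 9062 peaks fell to 71.5. Without KOSC-2 replicate 2 the HSC-3-specific difference between own and other line fell from 28.7 to 7.38 percentage points. With lists of equal length the KOSC-2-specific count was 1945 (ratio 1.14), the longest run of KOSC-2-specific regions 7, the longest stretches 17 (KOSC-2) and 12 (HSC-3), neighbours within 50 kb 20.4% and 16.2%, and median widths 588 and 485 bp. Median percentiles were 61.1 and 50.1 in place of 36.4 and 35.9, on the scale of the full lists, so that the cut itself raises them. With 50% of a region covered, 31.6% of KOSC-2-specific regions had a neighbour and their median width was 523 bp. Regions called in at least 1 list of a line and none of the other numbered 19879 and 10133, a ratio of 1.96. Neighbours within 10 kb were found for 7.99% and 4.10%, and within 200 kb for 60.3% and 32.3%.

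Leaving out each library in turn gave 4304 to 14239 KOSC-2-specific and 2337 to 8571 HSC-3-specific regions, ratios of 0.502 to 5.93, 16764 to 23913 common regions, longest runs of 14 to 35 and 6 to 19, and longest stretches of 30 to 52 and 6 to 22. Neighbours ranged over 29.3 to 56.0% and 17.9 to 41.8%, widths over 363 to 528 and 327 to 456 bp, and percentiles over 19.6 to 45.9 and 20.3 to 41.2. The difference between own and other line in the irradiated libraries ranged over 28.5 to 59.2 and 7.38 to 27.6 percentage points. Chromosomes without overlap numbered 15 to 19. Differences between lines ranged over 71.5 to 18054 peaks, 1.06 to 12.1 Mb, 20.0 to 56.0 bp in width and -21.1 to 0.236 kb in gap, the last without HSC-3 replicate 2. A rule that needs fewer libraries is easier to meet, so the counts rise by construction. With a replicate block (4 assignments, smallest exact permutation p 0.5) the differences of 9062 peaks, 6.58 Mb, 38 bp and -10.4 kb had p of 1, 1, 0.5 and 1, and neither design can pass 0.05. Regions with fewer reads at the summit than the smallest pileup called in a list (5 to 9) could not be called there, and the part of depth in the length of the lists was not tested.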
